A study of Mus musculus with 9 samples.

Results

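Hedgehog and BMP signaling oppose each other across the developing spinal cord, and 40 genes of these pathways were examined in spinal cords that lack the Onecut (OC) transcription factors Hnf6 and Oc2. The 40 genes, 14 of the hedgehog and 26 of the BMP pathway, were taken from a list of ligands, receptors, antagonists, transducers and response genes, and each was read by the brightest array feature that the platform annotation pairs with its symbol alone. All 40 were measured, among 22180 genes tested. Spinal cords were dissected from mouse embryos at e11.5, and total RNA was hybridised to Affymetrix MoGene 2.0 ST arrays, which read a transcript with probes spread along its exons. The OC mutant group holds 4 Hnf6-/-;Oc2-/- embryos, which carry inactivated alleles of both genes in every tissue and not in the spinal cord alone, and the control group holds 5 embryos that the labels call control without giving a genotype. The series counts 1 mutant embryo more, which was not analysed here.

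Sonic hedgehog is secreted by the notochord and then by the floor plate, and its graded signal sets the ventral progenitor domains through the Gli transcription factors. Bone morphogenetic proteins (BMPs) and the related growth and differentiation factors come from the surface ectoderm and then from the roof plate, and they set dorsal identities through type I and type II receptors and the Smad proteins. Both pathways induce some of their own components and inhibitors, and *Ptch1*, *Hhip* and *Gli1* on the ventral side and the *Id* genes, *Smad6* and *Smad7* on the dorsal side are commonly read as a measure of signaling.

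Values are log2 signals as deposited, and a difference of 1 between groups is a doubling of the signal. Array medians over all features lay between 5.23 and 5.31, and arrays correlated at 0.974 to 0.982 among OC mutants, 0.981 to 0.988 among controls and 0.973 to 0.984 between the groups (Pearson r over features). *Onecut2* and *Onecut3* were lower on every OC mutant array than on any control array, with log2 fold changes of -0.84 (SE 0.16) and -0.81 (SE 0.12). *Onecut1*, the gene called Hnf6, differed by -0.11 (SE 0.13), and where its array feature lies relative to the deleted part is not known, so that it checks nothing. The 13 spinal cord markers were all measured, with mean signals of 8.53 to 8.75 on OC mutant arrays and 8.24 to 8.81 on control arrays. The 8.24 was that of control 1, and the next lowest control stood at 8.67. The median log2 fold change of the 13 was -0.0023, or -0.20 without control 1 and 0.08 without control 3. Of the 13, 5 were positive, up to 0.22, and 8 negative. *Nes* and *Tubb3* were lower in OC mutants at an unadjusted p under 0.05 in limma (-0.26 each). These are 15.4% of the list, and 9.74% of all genes reached that p. Signal of Y-linked genes was present on 4 of 4 OC mutant arrays and on 3 of 5 control arrays, with means of 8.10 to 8.32, against 3.52 and 3.77 on controls 2 and 3.

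No member passed an adjusted p of 0.05 in limma, where 5 of all 22180 genes did (0.0225%). At an unadjusted p under 0.05, 4 members were higher in OC mutant spinal cords (*Hhip*, *Chrd*, *Bmpr1b* and *Acvr2b*) and 1 was lower (*Foxa2*). These 5 are 12.5% of the members, and 9.74% of all genes reached the same p (4.81% higher and 4.93% lower in OC mutants). The share is near that of the background and is no result about the 40 genes as a group. Of the genes at that p, 49.4% were higher in OC mutants with the deposited values, 34.9% after quantile normalization, 36.8% with array medians centred, and 72.4% with the medians of the tested genes centred, and the members at that p were then 3 higher and 1 lower, 3 higher and 1 lower, and 6 higher and 1 lower in that order. Two-sided exact permutation tests over all 126 ways to split the 9 arrays into 4 and 5 are given for single genes, and their smallest possible p is 0.00794. As the arrays carry RNA of whole spinal cords, fewer cells of a type and less RNA per cell cannot be told apart for any gene below.

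**Figure D1:**
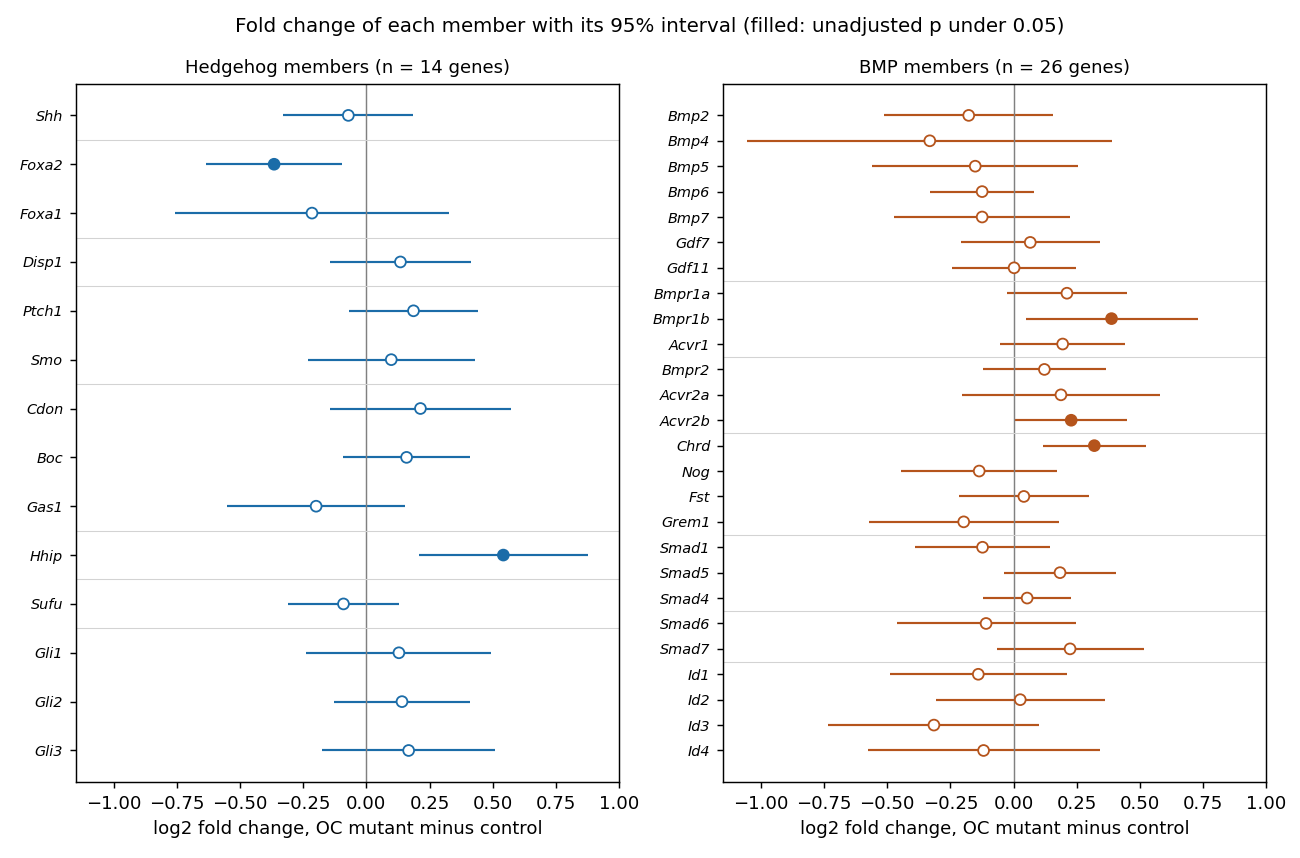
Log2 fold change of each of the 40 members, OC mutant minus control, with its 95% interval from limma (n = 4 OC mutant and 5 control arrays); hedgehog members are on the left, BMP members on the right, and thin lines separate roles. Filled points mark the 5 members with an unadjusted p under 0.05, of which Hhip lies highest at 0.54 and Foxa2 lowest at -0.37.

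Promoter windows were read from RefSeq gene starts (GRCm38.p6) for the 250 bases upstream, and 30 of the 40 members had at least 1 of the 37 windows. The letters searched on both strands were GACCACCCA, bound by Gli proteins, ATCAAT and ATCGAT, bound by OC factors, and GGCGCC, bound by the BMP Smads. The windows of *Hhip* and *Chrd*, whose OC mutant arrays all lay above the controls as did those of 2.15% of all genes, and the window of *Foxa2* that holds an OC match are shown, 5′ to 3′ on the gene's strand, with any match in capitals.
Hhip (chr8:80058009-80058258, - strand): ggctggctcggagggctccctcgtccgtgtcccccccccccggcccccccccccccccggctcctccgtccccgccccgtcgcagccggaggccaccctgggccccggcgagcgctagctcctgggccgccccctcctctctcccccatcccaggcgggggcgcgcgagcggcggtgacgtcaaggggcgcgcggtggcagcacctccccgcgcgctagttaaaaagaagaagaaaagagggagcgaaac
Chrd (chr16:20732877-20733126, + strand): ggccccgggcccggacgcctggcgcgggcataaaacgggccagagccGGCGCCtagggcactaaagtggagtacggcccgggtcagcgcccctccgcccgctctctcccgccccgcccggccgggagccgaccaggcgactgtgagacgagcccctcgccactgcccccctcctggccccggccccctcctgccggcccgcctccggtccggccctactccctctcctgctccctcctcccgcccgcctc
Foxa2 (chr2:148046970-148047219, - strand): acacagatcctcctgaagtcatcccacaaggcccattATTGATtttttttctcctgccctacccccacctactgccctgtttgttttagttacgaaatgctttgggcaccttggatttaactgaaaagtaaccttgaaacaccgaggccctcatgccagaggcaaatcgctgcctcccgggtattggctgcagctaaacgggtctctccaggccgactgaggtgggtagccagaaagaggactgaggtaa
The *Hhip* window holds none of the 4 motifs. The *Chrd* window holds GGCGCC, and the *Foxa2* window holds ATTGAT, which is ATCAAT read on the other strand. ATCAAT occurred in 2 of the 37 member windows (*Foxa2* and *Smad5*) and in 6.72% of the 32851 windows of all genes, so it was not more frequent among the members. GACCACCCA and ATCGAT were in no member window and in 0.225% and 0.728% of all windows. GGCGCC was in 29.7% of member windows (11 of 37) and in 9.59% of all, and the median GC content was 66.0% in member windows and 52.4% in all windows. A match is a description of letters and not a binding site.

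On the ligand side of the hedgehog pathway, *Shh* encodes the ligand itself. Its single-symbol feature gave 4.15, 4.26, 3.84 and 4.09 on the OC mutant arrays, against 4.15, 4.17, 3.86, 4.35 and 4.25 on the control arrays. These signals lie below the median of every array, so the feature is dim and the groups overlap throughout. The log2 fold change was -0.07 (SE 0.12, 95% interval -0.33 to 0.19; limma adjusted p = 0.889; exact permutation p = 0.524). A brighter feature that the annotation shares between *Shh* and *9530036O11Rik* gave 7.46, 7.42, 8.20 and 7.70 on the OC mutant arrays and 8.16, 7.77, 7.61, 7.61 and 7.46 on the control arrays. Its difference was -0.03 (SE 0.18), with OC mutant 3 and control 1 the highest of their groups, and which of both transcripts it reads was not tested. *Disp1*, which releases the lipid-modified ligand from the producing cell, differed by 0.13 (SE 0.13).

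*Foxa2*, a forkhead factor of the notochord and floor plate that activates *Shh*, gave 6.19, 6.53, 6.71 and 6.39 on the OC mutant arrays, against 6.94, 6.94, 6.65, 6.95 and 6.62 on the control arrays. OC mutant arrays 1, 2 and 4 lay below every control, whereas OC mutant 3 lay above controls 3 and 5, so the groups overlap. The mean was 6.45 ± 0.22 in OC mutants (SD, n = 4) and 6.82 ± 0.17 in controls (SD, n = 5), and the log2 fold change was -0.37 (SE 0.12, 95% interval -0.64 to -0.09) or 0.776-fold. Its unadjusted p was 0.0125 and its limma adjusted p = 0.393, with an exact permutation p = 0.0476. With any 1 array left out the difference stayed between -0.45 and -0.28. Of the 3 RefSeq windows of *Foxa2*, the printed one was chosen for the letters ATTGAT, another holds GGCGCC and the last holds none of the motifs. The related *Foxa1*, with which it acts in the floor plate, differed by -0.22 (SE 0.25), and by 0.00 without control 1, which at 7.40 was far above the other controls (5.93 to 6.54).

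Of 12 genes listed as floor plate markers, 10 were measured and 9 of these had a fold change below 0 on the log2 scale. Their median was -0.16, and that of all genes was 0.0045. The list includes *Foxa2*, *Foxa1* and *Shh*, and of the 7 genes that are not members 6 were negative, with a median of -0.11. It also holds *Nkx2-2* and *Nkx2-9*, which are not confined to the floor plate. *Foxa2* alone among the 10 had an unadjusted p under 0.05, and the mean signal of the list was 6.81 to 6.99 on OC mutant arrays and 6.97 to 7.23 on control arrays. Without control 1 the median was -0.06. Whether the floor plate markers other than *Foxa2* and the value of *Foxa2* share a source was not tested.

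Among the receptors and transducers of the hedgehog signal, *Ptch1* binds the ligand, represses *Smo* in its absence and is itself a response gene. It gave 9.04, 8.92, 9.02 and 9.40 on the OC mutant arrays and 8.90, 8.92, 9.14, 8.74 and 8.85 on the control arrays. OC mutant 4 was the highest of the 9 arrays, the other values were interleaved, and the log2 fold change was 0.19 (SE 0.12, 95% interval -0.07 to 0.44; limma adjusted p = 0.633; exact permutation p = 0.159). *Smo*, the membrane protein that passes the signal on, differed by 0.10 (SE 0.15). The co-receptors *Cdon*, *Boc* and *Gas1*, which present the ligand to *Ptch1*, differed by 0.21 (SE 0.16), 0.16 (SE 0.12) and -0.20 (SE 0.16). None of the intervals of these 5 genes excluded 0.

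*Hhip*, a membrane-anchored antagonist that binds the ligand and is induced by hedgehog signaling, had the largest log2 fold change of the 40 genes. Its log2 signals were 6.54, 6.08, 5.98 and 6.06 on the OC mutant arrays, against 5.57, 5.53, 5.96, 5.27 and 5.78 on the control arrays. Every OC mutant array lay above every control array, by as little as 0.02 between OC mutant 3 and control 3, and OC mutant 1 and control 4 were the extremes. The mean was 6.16 ± 0.25 in OC mutants (SD, n = 4) and 5.62 ± 0.26 in controls (SD, n = 5), and the log2 fold change was 0.54 (SE 0.15, 95% interval 0.21 to 0.88) or 1.46-fold. The unadjusted p was 0.00432, the limma adjusted p = 0.343 and the exact permutation p = 0.0159. With 1 array left out the difference was 0.42 to 0.63. The printed *Hhip* window has a GC content of 76.0% and no Gli match.

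The Gli proteins carry the signal into the nucleus, where *Gli1* and *Gli2* act mainly as activators and *Gli3* mainly as a repressor. *Gli1*, a response gene, gave 6.12, 6.16, 6.50 and 6.74 on the OC mutant arrays and 6.72, 6.12, 6.20, 5.95 and 6.27 on the control arrays. OC mutant 4 and control 1 were almost level at the top, and the log2 fold change was 0.13 (SE 0.17, 95% interval -0.24 to 0.50; limma adjusted p = 0.846; exact permutation p = 0.540). *Gli2* and *Gli3* differed by 0.14 (SE 0.12) and 0.17 (SE 0.16). *Sufu*, which holds Gli proteins inactive in the cytoplasm, differed by -0.09 (SE 0.10), and its second, dimmer feature by 0.10 (SE 0.10). The 3 response genes *Ptch1*, *Hhip* and *Gli1* thus all had a positive log2 fold change, with *Hhip* the sole one whose interval excluded 0.

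Over the 14 hedgehog members, 9 log2 fold changes lay above 0 and 5 below it, with a median of 0.13. Over all genes tested 51.3% were positive. The median was 0.03 without OC mutant 4 and 0.18 without control 1, the lowest and the highest with 1 array left out. The negative members were *Shh*, *Foxa2*, *Foxa1*, *Gas1* and *Sufu*. The first 3 of these act in the signal-producing cells, as does *Disp1*, which was positive at 0.13. *Shh* was 0.01 without OC mutant 3 and *Foxa1* was 0.00 without control 1, so only *Foxa2* of these 3 stayed negative with any 1 array left out.

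**Figure D2:**
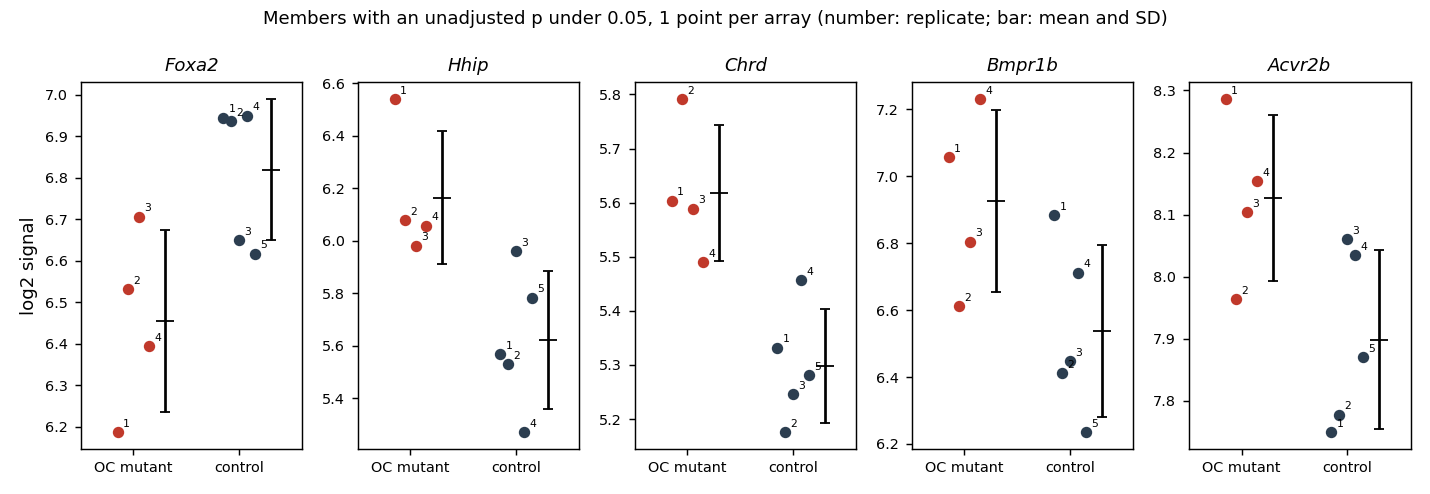
Log2 signal on each array for the 5 members with an unadjusted p under 0.05, with OC mutant arrays on the left and control arrays on the right of each panel; numbers are replicate numbers and the black bars give mean and SD (n = 4 and 5). The groups do not overlap for Hhip and Chrd and overlap for Foxa2, Bmpr1b and Acvr2b; the vertical axes differ between panels and do not start at 0.

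The BMP pathway begins with its ligands, of which *Bmp7* and *Gdf7* are made by the roof plate and steer commissural axons as well as dorsal cell identity. *Gdf7* gave 5.25, 5.53, 5.82 and 5.76 on the OC mutant arrays and 5.70, 5.44, 5.53, 5.60 and 5.36 on the control arrays, a log2 fold change of 0.07 (SE 0.13, 95% interval -0.21 to 0.34; limma adjusted p = 0.906; exact permutation p = 0.619). *Bmp7* gave 8.08, 7.92, 8.09 and 8.55 on the OC mutant arrays and 8.66, 8.39, 8.18, 7.92 and 8.27 on the control arrays, a log2 fold change of -0.12 (SE 0.16, 95% interval -0.47 to 0.23; limma adjusted p = 0.845; exact permutation p = 0.516). For both ligands the groups overlapped over most of their range, with OC mutant 1 lowest for *Gdf7* and control 1 highest for *Bmp7*. The widest interval of the 40 genes was that of *Bmp4*, a ligand of the ectoderm and roof plate, with a log2 fold change of -0.33 (95% interval -1.05 to 0.39) and signals of 6.68, 6.49, 7.20 and 7.59 on the OC mutant arrays against 8.41, 7.47, 6.99, 6.58 and 7.14 on the control arrays. Control 1 stood 0.94 above the next control, and the *Bmp4* difference was -0.06 without control 1 and -0.53 without OC mutant 4. *Bmp2*, *Bmp5* and *Bmp6* differed by -0.18 (SE 0.15), -0.15 (SE 0.19) and -0.12 (SE 0.09), and *Gdf11*, a ligand of the activin type II receptors, by 0.00 (SE 0.11).

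Of the 7 ligands, 5 thus had a log2 fold change below 0 and the median was -0.12. Without control 1 the median was -0.03. The mean of the 12 sclerotome and mesenchyme markers was 6.10 to 6.92 on OC mutant arrays and 6.19 to 7.58 on control arrays, and it was highest on control 1. Of these markers 11 of 12 were negative, with a median of -0.21, or 0.03 without control 1, and *Tcf15* had an unadjusted p under 0.05 (-0.21). The 11 measured of 12 genes listed as roof plate markers, which include *Gdf7* and *Bmp6*, had a median of -0.12 with 8 negative. That median was -0.0065 without OC mutant 2, -0.03 without control 1 and -0.21 without control 5. The mean signal of the 11 was 6.46 to 6.84 on OC mutant arrays and 6.45 to 6.95 on control arrays. Only *Zic1* had an unadjusted p under 0.05 (-0.26), and *Zic1*, *Zic2* and *Atoh1* are not confined to the roof plate. The 3 positive genes of the list were *Rspo3* (0.54, SE 0.28), *Lmx1a* (0.24, SE 0.15) and *Gdf7* (0.07, SE 0.13). The part of either tissue in the values of the ligands was not tested.

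All 6 BMP receptors among the members had a log2 fold change above 0, as had the 3 *Gli* genes. No other role with 3 or more members was of 1 sign. Of the type I receptors outside the members, *Acvrl1* differed by -0.14 (SE 0.14), *Acvr1b* by 0.11 (SE 0.13) and *Acvr1c* by 0.10 (SE 0.12). *Bmpr1b*, a type I receptor that phosphorylates Smads, gave 7.06, 6.61, 6.80 and 7.23 on the OC mutant arrays and 6.88, 6.41, 6.45, 6.71 and 6.24 on the control arrays. OC mutants 1 and 4 lay above every control, OC mutant 2 lay below controls 1 and 4, and the log2 fold change was 0.39 (SE 0.16, 95% interval 0.05 to 0.73) or 1.31-fold. Its unadjusted p was 0.0289, its limma adjusted p = 0.470 and its exact permutation p = 0.0794.

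*Acvr2b*, a type II receptor that serves both BMPs and activins, gave 8.29, 7.96, 8.10 and 8.15 on the OC mutant arrays and 7.75, 7.78, 8.06, 8.04 and 7.87 on the control arrays. Only OC mutant 2 lay within the range of the controls. The log2 fold change was 0.23 (SE 0.10, 95% interval 0.01 to 0.45) or 1.17-fold, with an unadjusted p of 0.0454, a limma adjusted p = 0.504 and an exact permutation p = 0.0556. The type I receptors *Bmpr1a* and *Acvr1* differed by 0.21 (SE 0.11) and 0.19 (SE 0.11), and the type II receptors *Bmpr2* and *Acvr2a* by 0.12 (SE 0.11) and 0.19 (SE 0.18). The *Bmpr2* feature shared with *Gm20272* gave 0.12 (SE 0.11).

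The 6 receptors had a median log2 fold change of 0.20, which stayed between 0.16 and 0.24 with 1 array left out. Averaged over the 6 genes as the deviation from each gene's mean over 9 arrays, the OC mutant arrays stood at 0.20, 0.07, 0.02 and 0.21, and the control arrays at -0.14, -0.25, -0.03, -0.03 and -0.04. Each OC mutant array was thus above each control array for this mean, by 0.04 at the closest. None of the 6 genes separated the groups singly. How often means of other sets of 6 genes separate in this way was not computed, so the separation is a description only. The receptors are long genes, and the fold changes of these arrays varied with the genomic span of a gene. In 10 bins of all genes by span, the median was 0.05 in the shortest bin (median span 0.924 kb) and -0.04 at a median span of 5.16 kb. From there it rose with each bin, to 0.04 in the longest (178.0 kb). The 6 receptors span 40566 bp (*Acvr2b*) to 332451 bp (*Bmpr1b*), within the rising part. Of all genes spanning more than 39.97 kb, the median span of the members, 3514 of 5858 genes lay above 0 (median 0.04), against 48.1% of those with a shorter span (median -0.01). Among the members, 14 of 20 longer genes were positive (median 0.15) and 9 of 20 shorter ones (median -0.09). With the trend over span removed from every array, all 6 receptors had a positive value with a median of 0.16. *Bmpr1b* (0.35, unadjusted p = 0.0813 in limma) and *Acvr2b* (0.20, unadjusted p = 0.0711) then no longer reached an unadjusted p of 0.05, and the members' medians were 0.11 for longer and -0.07 for shorter genes.

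**Figure D3:**
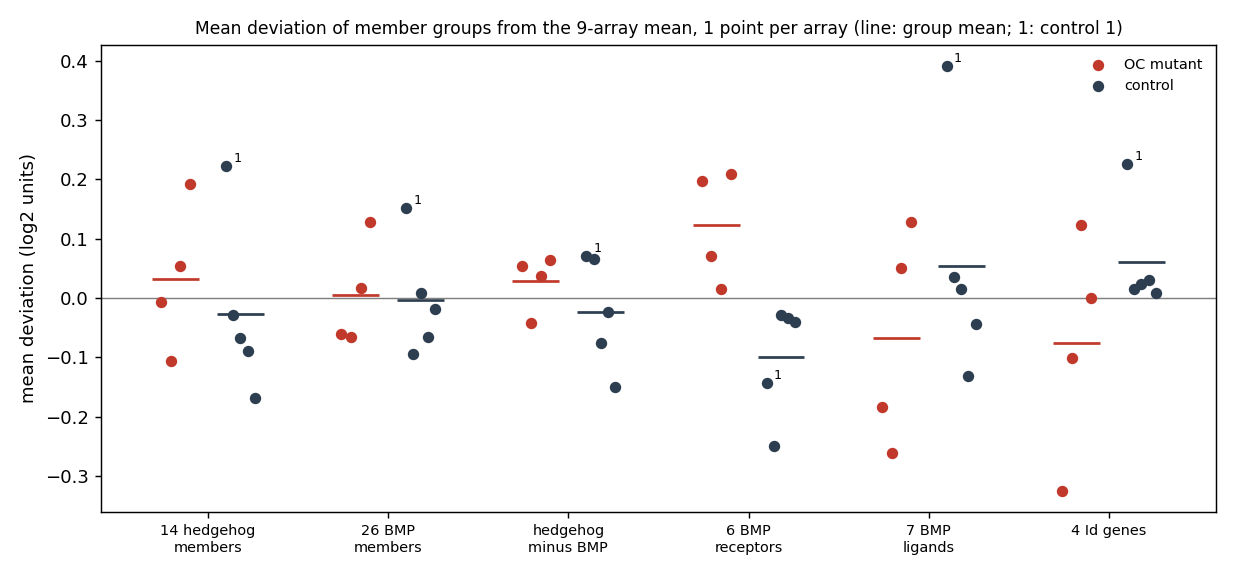
Mean deviation of groups of members from each gene's mean over 9 arrays, 1 point per array, with OC mutant arrays left of control arrays in each group; lines are group means and the digit 1 marks control 1. The 6 BMP receptors lie between 0.02 and 0.21 on OC mutant arrays and between -0.25 and -0.03 on control arrays, whereas the other groups overlap. How often means of other gene sets separate was not computed.

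Secreted antagonists hold BMPs away from their receptors. *Chrd* encodes chordin, which is made by the notochord and binds BMPs, and its log2 signals were 5.60, 5.79, 5.59 and 5.49 on the OC mutant arrays, against 5.33, 5.18, 5.25, 5.46 and 5.28 on the control arrays. Every OC mutant array lay above every control array, with OC mutant 4 and control 4 the closest at 0.03 apart. The mean was 5.62 ± 0.13 in OC mutants (SD, n = 4) and 5.30 ± 0.11 in controls (SD, n = 5), and the log2 fold change was 0.32 (SE 0.09, 95% interval 0.12 to 0.52) or 1.25-fold. The unadjusted p was 0.00516, the limma adjusted p = 0.347 and the exact permutation p = 0.0159. With 1 array left out the difference was 0.26 to 0.36. The printed *Chrd* window has a GC content of 78.0% and 1 GGCGCC.

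*Chrd* and *Hhip* were the 2 members whose OC mutant arrays all lay above the controls, and no member had all of them below. Over all genes tested, 2.15% lay above and 1.79% below in this way. Of 8 notochord markers, a list that includes *Chrd* and *Shh*, 7 were measured, with a median of 0.06, or -0.0038 over the 6 other than *Chrd*. With 1 array left out the median of the 7 was -0.01 (without control 4) to 0.14 (without control 1), and their mean signal was 5.07 to 5.35 on OC mutant arrays and 5.01 to 5.44 on control arrays. *Noto*, which marks the notochord, averaged 3.88 in OC mutants and 3.77 in controls, below the median of every array. The other antagonists *Nog* (noggin), *Fst* (follistatin, which binds activins foremost) and *Grem1* (gremlin) differed by -0.14 (SE 0.14), 0.04 (SE 0.12) and -0.20 (SE 0.17).

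Inside the cell, *Smad1* and *Smad5* are phosphorylated by the type I receptors and join *Smad4*, the partner common to BMP and activin signaling. They differed by -0.12 (SE 0.12), 0.18 (SE 0.10) and 0.05 (SE 0.08). The inhibitory *Smad6* gave 5.50, 5.61, 5.57 and 5.82 on the OC mutant arrays and 6.19, 5.95, 5.47, 5.71 and 5.34 on the control arrays, a log2 fold change of -0.11 (SE 0.16, 95% interval -0.46 to 0.25; limma adjusted p = 0.872; exact permutation p = 0.579). *Smad7*, the other inhibitory Smad, gave 5.64, 6.002, 5.93 and 6.21 on the OC mutant arrays and 5.97, 5.47, 5.84, 5.62 and 5.71 on the control arrays, a log2 fold change of 0.22 (SE 0.13, 95% interval -0.07 to 0.51; limma adjusted p = 0.619; exact permutation p = 0.167). The controls thus spread more widely than the OC mutants for *Smad6*, with control 1 highest, and OC mutant 4 was the highest array for *Smad7*.

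The *Id* genes encode helix-loop-helix proteins that block proneural factors, and they are direct targets of BMP signaling. *Id1* gave 6.84, 7.06, 7.48 and 7.28 on the OC mutant arrays and 7.76, 7.22, 7.10, 7.33 and 7.10 on the control arrays, a log2 fold change of -0.14 (SE 0.16, 95% interval -0.49 to 0.21; limma adjusted p = 0.822; exact permutation p = 0.468). *Id2* gave 8.84, 9.14, 9.41 and 9.46 on the OC mutant arrays and 9.60, 9.14, 9.09, 9.06 and 9.03 on the control arrays, a log2 fold change of 0.03 (SE 0.15, 95% interval -0.31 to 0.36; limma adjusted p = 0.978; exact permutation p = 0.897). For both genes OC mutant 1 was the lowest and control 1 the highest of the 9 arrays.

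*Id3* gave 7.10, 7.24, 7.91 and 7.83 on the OC mutant arrays and 8.29, 7.86, 7.65, 7.76 and 7.62 on the control arrays. OC mutants 1 and 2 lay below every control while OC mutants 3 and 4 lay inside their range, and the log2 fold change was -0.32 (SE 0.19, 95% interval -0.73 to 0.10; limma adjusted p = 0.627; exact permutation p = 0.238). *Id4* ran the other way over the arrays, with 8.68, 8.93, 8.46 and 8.19 on the OC mutant arrays and 8.02, 8.61, 9.02, 8.73 and 9.05 on the control arrays, so that control 1 was the lowest of all. Its log2 fold change was -0.12 (SE 0.21, 95% interval -0.58 to 0.34; limma adjusted p = 0.900; exact permutation p = 0.643). The 4 *Id* genes had a median of -0.13, 3 of them negative.

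**Figure D4:**
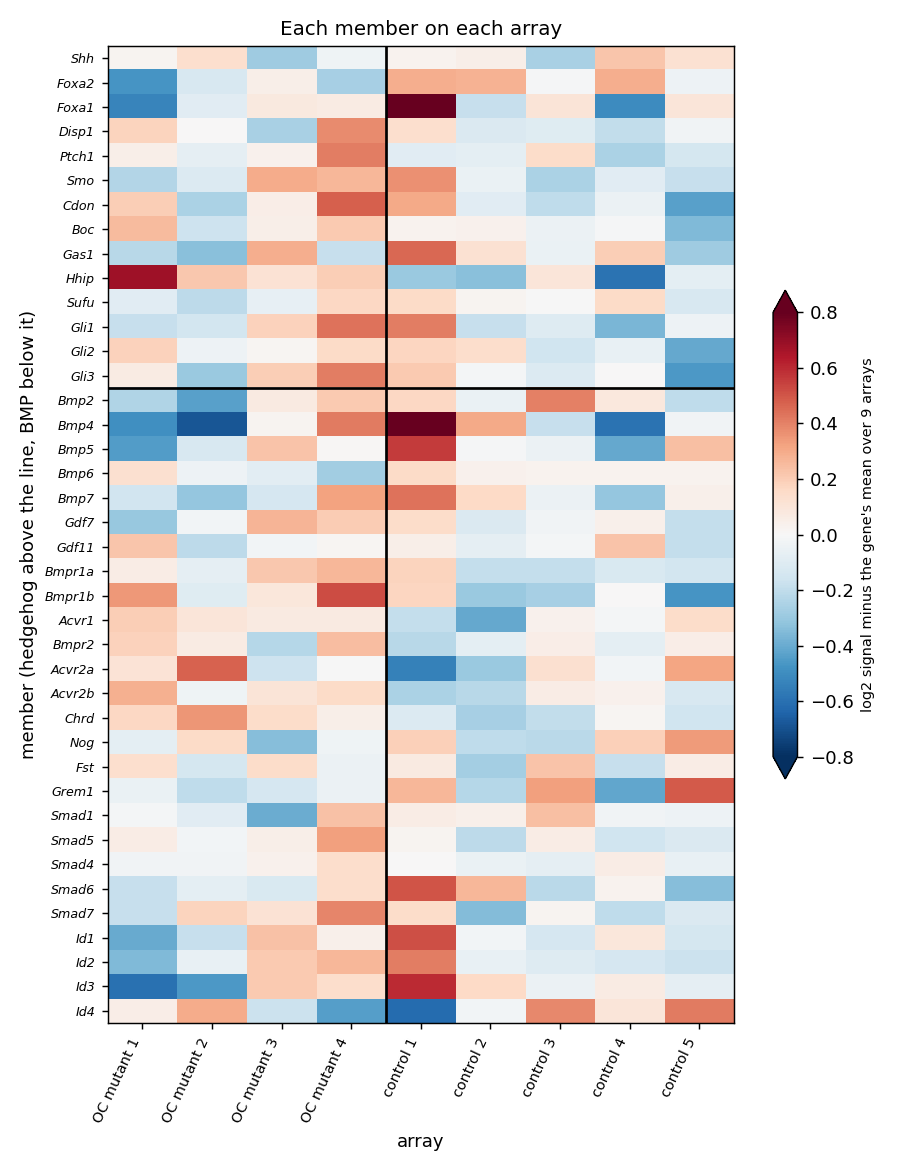
Log2 signal of each member on each array minus that gene's mean over the 9 arrays; rows are the 40 members, hedgehog above the horizontal line and BMP below it, and columns are the arrays, 4 OC mutants left of the vertical line and 5 controls right of it. Control 1 is the highest array for 11 members, among them 7 of the 11 BMP ligands and Id genes, and OC mutant 4 for 12.

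Over the 26 BMP members, 14 log2 fold changes were positive and 12 negative, with a median of 0.01 that lay between -0.02 and 0.06 with 1 array left out. Ventral and dorsal systems were compared on each array as the mean deviation of the hedgehog members minus that of the BMP members. This difference was 0.05, -0.04, 0.04 and 0.06 on the OC mutant arrays and 0.07, 0.07, -0.08, -0.02 and -0.15 on the control arrays. The groups overlapped, and their means differed by 0.05, less than the pooled SD of 0.078 between arrays of a group. Both systems were high on OC mutant 4 (0.19 for hedgehog and 0.13 for BMP) and on control 1 (0.22 and 0.15).

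Beyond the 40 members, 33 of 37 other hedgehog pathway genes were measured, 17 of them with a positive log2 fold change and a median of 0.01. None passed an adjusted p of 0.05 in limma. At an unadjusted p under 0.05 were 3 of the 33 (9.09%), against 9.74% of all genes. *Cul3* alone was higher on every OC mutant array than on any control array, as were 2.15% of all genes. Its difference was 0.16 (SE 0.08) and did not reach that p. *Lrp2*, an endocytic receptor that takes up *Shh*, averaged 6.199 ± 0.13 in OC mutants (SD, n = 4) and 5.82 ± 0.15 in controls (SD, n = 5), a difference of 0.37 (SE 0.10; limma adjusted p = 0.336; exact permutation p = 0.0238). *Ift172*, of the intraflagellar transport that hedgehog signaling needs in cilia, differed by 0.21 (SE 0.09) and *Fkbp8*, a restraint of the pathway in the neural tube, by -0.43 (SE 0.15). *Spop*, an adaptor in Gli protein breakdown, differed by 0.17 (SE 0.08) without reaching that p.

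Of 55 other BMP pathway genes 49 were measured, 21 of them positive with a median of -0.02. Again none passed an adjusted p of 0.05 in limma. At an unadjusted p under 0.05 were 3 of the 49 (6.12%), against 9.74% of all genes. *Smad2*, which serves activin and Gdf11 rather than BMP receptors, was higher on every OC mutant array than on any control array, as were 2.15% of all genes. It averaged 9.14 ± 0.13 in OC mutants (SD, n = 4) and 8.88 ± 0.11 in controls (SD, n = 5). The difference was 0.27 (SE 0.09; limma adjusted p = 0.402; exact permutation p = 0.00794, the smallest possible). *Hjv*, a BMP co-receptor, was lower on every OC mutant array, as were 1.79% of all genes, with a difference of -0.27 (SE 0.10). The ligand *Gdf6* and the antagonist *Nbl1* differed by 0.23 (SE 0.10) and -0.20 (SE 0.10). *Nbl1* did not reach an unadjusted p of 0.05.

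Lists of markers named for other tissues were read on the same arrays. All 5 measured of 8 genes listed as neural crest and ganglion markers were negative, with a median of -0.32, or -0.12 without control 1. Only *Prph* and *Foxd3* had an unadjusted p under 0.05 (-0.76 and -0.32). *Sox10*, *Erbb3* and *Pou4f1* differed by -0.34 (SE 0.31), -0.16 (SE 0.33) and -0.09 (SE 0.09). *Prph*, *Foxd3* and *Pou4f1* can also be expressed in the cord, and which tissue their values come from was not tested. The mean signal of the 5 genes was 6.53 to 7.03 on OC mutant arrays and 6.89 to 7.35 on control arrays. Of the 8 muscle markers 7 were negative, with a median of -0.17, or -0.08 without control 1, and *Myog* at an unadjusted p under 0.05 (-0.54), and their mean signal was 4.69 to 5.48 on OC mutant arrays and 5.04 to 5.54 on control arrays. All 6 measured of 8 blood and macrophage markers were negative, with a median of -0.20 (-0.31 without OC mutant 4 and -0.10 without OC mutant 2) and a mean signal of 7.10 to 7.87 on OC mutant arrays and 7.55 to 8.04 on control arrays. The 7 measured of 8 surface ectoderm markers and the 8 endothelium markers had medians of -0.01 and -0.08, with mean signals of 4.28 to 4.54 and 7.20 to 7.37 on OC mutant arrays and 4.36 to 4.68 and 7.09 to 7.48 on control arrays. The part of these tissues in the values of the 40 genes was not tested.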

How the data were processed

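RNA of 9 spinal cords, 4 OC mutant and 5 control, was labelled with the GeneChip WT PLUS kit, hybridised to MoGene 2.0 ST arrays and scanned with Expression Console by the authors, who worked in R. The deposited values are log2 signals for 41345 features per array, and their background correction, summarisation, normalization and genome build were not given in the sources used here. A dim feature's fold change can be compressed by array background, and no gene's level is set against another's. Groups and replicate numbers came from the labels, which do not say whether embryos shared a litter, so p-values measure the spread between these samples.

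The platform annotation gave 1 symbol to 23521 features, several to 1820 and did not list 16004. Identifiers of 23328 features matched RefSeq (GRCm38.p6), by which symbols were updated. The brightest feature per symbol gave 22180 genes, with no filter on dim features. Genes were fitted in limma 3.58.1 under R 4.3.3 by lmFit with eBayes moderation (prior degrees of freedom 4.47), OC mutant minus control, with Benjamini-Hochberg adjustment over all genes, and the step was tested on simulated data. The members and all gene lists were chosen with earlier results of these data known, so lists are described by counts and medians and get no test. Values on every array are given for members with an unadjusted p under 0.05 or groups that do not overlap and for the set of ligands *Shh*, *Gdf7* and *Bmp7* and the response genes *Ptch1*, *Gli1*, *Hhip*, *Id1* to *Id4*, *Smad6* and *Smad7*; *Bmp4* was added after its values were seen. Up to 4 genes of smallest p are named per list of other pathway genes. Per-array means of the receptors, ligands and *Id* genes were added to the planned comparison of hedgehog with BMP members. *Noto*, *Acvrl1*, *Acvr1b*, *Acvr1c*, *Cul3*, *Rspo3*, *Lmx1a*, *Sox10*, *Erbb3* and *Pou4f1* were also named after their values were seen. Alternatives were the mean of a gene's features, every feature on its own, dim genes left out, quantile normalization, centring of array medians, the trend and robust options of eBayes, the replicate block, array weights, a Y-linked covariate, and each array left out. Chosen after seeing the data were centring on the medians of the tested genes, removal of the trend with gene span (lowess span 0.3, for the 99.1% of genes with a span), embryos with Y-linked signal only, and features shared with a second symbol for *Shh* and *Bmpr2*. The number of arrays limits the precision.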

Additional observations from a re-analysis of the deposited data

Results flagged for a closer look

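In 4 of the 80 groups of arrays looked at, 1 array stood far from the rest of its group, and chance flags about 1 in 20 groups. *Boc* was 8.16 on control 5, where the nearest of the other controls was 8.46. Control 1 was high for the other 3 genes: *Bmp6* was 6.06 there with the next control at 5.95, *Bmpr1a* was 8.82 with the next at 8.52, and *Id2* was 9.60 with the next at 9.14.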

How the results depend on the processing

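Over 21 other settings, 814 of 839 values of single members kept their direction, 25 turned, and 0 passed an adjusted p of 0.05 in limma. In 31 members the direction held in each setting run. *Hhip*, *Chrd* and *Foxa2* had an unadjusted p under 0.05 in 21 of 21 settings, *Bmpr1b* in 13 and *Acvr2b* in 9. *Gdf11* was -0.0043 with quantile normalization, -0.0172 with array medians centred, -0.0456 with the replicate block, -0.0247 with the Y-linked covariate and -0.0262 in embryos with Y-linked signal only, and *Id2* was -0.0131, -0.0138 and -0.0187 in the last 3 of these settings. With 1 array left out the ranges were -0.0712 to 0.0725 for *Gdf11*, -0.0559 to 0.149 for *Id2*, -0.145 to 0.0107 for *Shh*, -0.365 to 0.0031 for *Foxa1*, -0.0114 to 0.1803 for *Gdf7*, -0.0222 to 0.102 for *Fst*, -0.207 to 0.0059 for *Smad6* and -0.286 to 0.0068 for *Id4*. *Sufu* was 0.0035 with the mean of its features.

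Members higher at an unadjusted p under 0.05 numbered 2 with the Y-linked covariate, with the span trend removed and in embryos with Y-linked signal only, and 2 to 5 with 1 array left out, with 2 without OC mutant 4 and without control 2. Members lower numbered 2 with the covariate and in embryos with Y-linked signal only, and 1 to 3 with 1 array left out, with 3 without OC mutant 3 and 2 without control 4. Other hedgehog genes at that p numbered 5 with trend and robust settings and with tested-gene medians centred, 1 with the covariate and in embryos with Y-linked signal only, and 2 to 4 with 1 array left out. Other BMP genes numbered 0 with the replicate block and 1 to 4 with 1 array left out, with 1 without OC mutant 4. The cause was not tested.

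Over all genes the adjusted threshold was passed by 1 gene with the replicate block, 12 with array weights, 2 with the covariate, and 2 to 44 with 1 array left out, with 44 without OC mutant 3. Replicate numbers showed no sign of pairing: deviations of same-numbered arrays correlated at -0.38, -0.13, -0.39 and -0.16. No OC mutant array correlated best with the control of its own number. So few correlations cannot settle whether embryos shared a litter or a processing step. With the replicate block 3 members were higher and 1 lower at an unadjusted p under 0.05 (540 genes higher and 610 lower in all), and the hedgehog and BMP medians were 0.07 and -0.02. Dim features such as that of *Shh* limit what a fold change can show.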
